A study of Mus musculus with 4 samples.

Results

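The Foxp3 gene and the regulatory elements inside it were followed in chromatin accessibility data of regulatory T cells with and without the long noncoding RNA gene Flicr. Of the 84476 regions listed for the series, 6 overlap the Foxp3 window, chrX:7155500-7170000 of the mm9 mouse genome build. The rule that makes all 6 members uses position alone, and the window was chosen with earlier results of these data known. Following positions recalled for this build, which were not checked against an annotation of it, 4 of them were read as the promoter and the conserved noncoding sequences CNS1, CNS2 and CNS3. The other 2, a region 721 bp after CNS3 and the last region of the window, carry no element name here. Accessibility was measured by ATAC-seq, in which a transposase cuts and tags open chromatin. The cells were CD4+ and TCRβ+, were gated on the brightest 50% of CD25hi staining and came from spleen and lymph nodes of male NOD mice, a strain prone to autoimmune diabetes, 8 to 10 weeks old, and 50000 were used per library. The groups were Flicr WT (2 libraries) and Flicr KO (2 libraries), which by the labels differ in the Flicr genotype alone. The sources used here say neither which part of Flicr was removed nor whether replicates came from separate mice, so p-values measure the spread between these libraries, which may be technical.

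Foxp3 encodes a forkhead transcription factor, the lineage factor of regulatory T cells, and its expression is set by a promoter and 3 enhancers in its introns. CNS1 responds to TGF-β and is known for the induction of Foxp3 outside the thymus. CNS2 is demethylated in committed regulatory T cells and is known for keeping Foxp3 on through cell division. CNS3 binds c-Rel and is known for setting how readily Foxp3 is first switched on in the thymus. By RefSeq annotation (GRCm38.p6), Flicr lies on the same strand as Foxp3 and its end shares bases with the start of Foxp3. By its title the series is about Flicr modulating Foxp3, and the comparison of KO with WT across these elements addresses whether their accessibility differed.

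Promoter sequence is shown because the promoter region is the level against which the enhancers are set below. RefSeq (GRCm38.p6) gives 2 starts of Foxp3, 807 bases apart, and both rows of the promoter table matched by symbol. The 250 bases before each start are printed 5′ to 3′ on the + strand. They were not placed on mm9, so whether both lie in the promoter region of the files was not tested. Capitals mark matches, on either strand, to the TATA box letters TATAAA, the NFAT core GGAAA or the GATA letters AGATAA.
Foxp3 start 1, chrX:7579426-7579675: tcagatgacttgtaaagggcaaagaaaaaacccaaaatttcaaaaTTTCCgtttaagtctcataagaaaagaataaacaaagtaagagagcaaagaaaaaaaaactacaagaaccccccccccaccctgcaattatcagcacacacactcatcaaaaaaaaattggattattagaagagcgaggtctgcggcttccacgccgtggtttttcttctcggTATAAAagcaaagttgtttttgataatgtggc
Foxp3 start 2, chrX:7580233-7580482: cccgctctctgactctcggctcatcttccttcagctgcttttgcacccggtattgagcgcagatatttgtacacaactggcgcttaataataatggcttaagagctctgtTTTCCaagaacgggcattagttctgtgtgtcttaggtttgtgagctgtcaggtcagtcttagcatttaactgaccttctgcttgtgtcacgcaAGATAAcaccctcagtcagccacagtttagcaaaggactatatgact
The TATA letters lie at 32 bases before start 1, and 12.4% of the 32851 RefSeq promoter windows of this length hold them. Each window has 1 match to the NFAT core, which 55.6% of all windows hold. The GATA letters are in the window of start 2 and in 9.99% of all windows. No match was found in either window to TGTGGT (Runx, in 14.0% of all windows), TGANTCA (AP-1, 6.75%), TGACGTCA (CRE, 1.55%) or GTAAACA (forkhead, 3.17%). The window of start 1 is 37.6% G and C and that of start 2 is 46.0%, against a median of 52.4% over all windows. A match describes letters in the sequence and is no evidence of binding.

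The libraries differed in depth and in how much of it fell in regions. They held 19514512 to 41809276 reads, of which 24.2% to 35.1% lay in the 84476 regions, with the lowest share in Flicr WT replicate 1. The 6 members together took 428 and 444 reads in WT replicates 1 and 2 and 647 and 238 reads in KO replicates 1 and 2. Values are the deposited RPKM, read numbers scaled to region length and library total, from which the read numbers were recovered. Between 78.8% and 85.5% of the read numbers were even, as when mates are counted separately, so the 95% Poisson and exact Clopper-Pearson intervals below cover counting error alone and are too narrow by this. Over all 80254 regions tested, the median log2 fold change was 0.21 toward KO, so each value is also given relative to the median RPKM of its library over those regions. Whether the sorted cells carried other accessible marker genes was not analysed here, because the files name no genes.

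RPKM averages over the width of a region, and the regions were from 101 bp (CNS3) to 1814 bp (promoter) wide. The order of elements within a library therefore compares unlike widths. By the mean RPKM of the WT libraries the window was highest at CNS3 and CNS2 and lowest at the promoter and CNS1. Neither pair held in both libraries. In Flicr WT replicate 2 the region after CNS3 exceeded CNS2 (3.78 against 3.66 RPKM). In Flicr WT replicate 1 the region after CNS3 lay below the promoter (1.86 against 1.96 RPKM). Mean RPKM in WT ran from 5.0 ± 0.782 (SD, n = 2) at CNS3 and 4.6 ± 1.34 at CNS2 through 3.0 ± 0.866 at the last region and 2.82 ± 1.36 at the region after CNS3 to 1.75 ± 0.305 at the promoter and 1.57 ± 0.638 at CNS1. In this order the WT libraries of neighbouring elements overlapped everywhere except between CNS2 and the last region. That gap was narrow, 3.66 against 3.62 RPKM. Both values are from Flicr WT replicate 2, and their counting intervals overlapped (3.10 to 4.28 and 2.98 to 4.35). The KO libraries gave the same order of means, with 12.6 ± 2.54 RPKM at CNS3, 5.32 ± 1.76 at CNS2, 2.59 ± 0.0898 at the last region, 1.42 ± 0.0265 at the region after CNS3, 1.32 ± 0.0228 at the promoter and 0.581 ± 0.389 at CNS1. In KO the values of no 2 neighbours in the order overlapped, and the widest step lay between CNS3 and CNS2. The gap between the region after CNS3 and the promoter was narrow, 1.40 against 1.33 RPKM. The 1.40 rests on 10 reads in Flicr KO replicate 2, and its counting interval (0.670 to 2.57) contains both promoter values. Counting intervals also overlapped between the last region and the region after CNS3, and between the promoter and CNS1. Across elements and libraries the members spanned most of the range of levels. At the ends, both in Flicr KO replicate 2, CNS1 (2 reads) exceeded 3.56% of all regions of that library and CNS3 exceeded 94.5%.

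**Figure D1:**
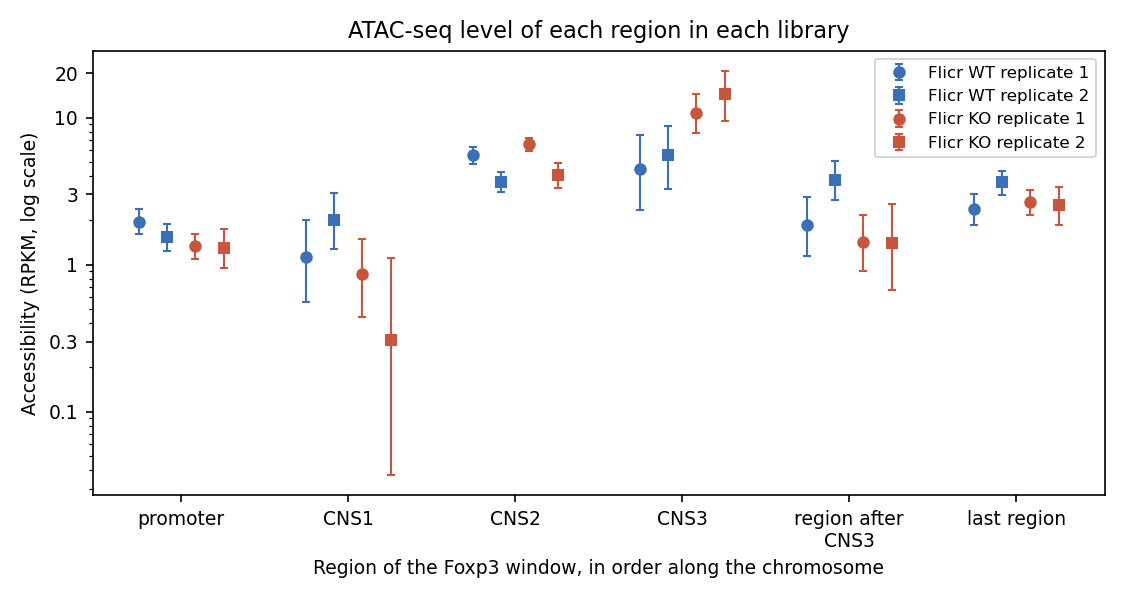
RPKM on a log axis for each of the 6 regions in order along the chromosome, with circles for replicate 1, squares for replicate 2, blue for Flicr WT, red for Flicr KO and bars for 95% Poisson intervals of the reads. Both KO libraries lie above both WT libraries at CNS3, at 10.8 and 14.3 against 4.45 and 5.55 RPKM, and the genotypes overlap at CNS2 and the last region.

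The regions themselves differed in kind. The promoter region (chrX:7156122-7157935, mm9) was 1814 bp wide and that of CNS2 (chrX:7160858-7162166) 1309 bp, and 4.35% and 9.45% of all regions were wider than these. CNS1 (chrX:7158885-7159220) was 336 bp wide, the region after CNS3 (chrX:7164599-7164966) 368 bp and the last region (chrX:7168663-7169635) 973 bp. The CNS3 region (chrX:7163777-7163877) was 101 bp wide, the narrowest in the files. It was the only region of that width or below, and the next narrowest width, 251 bp, was shared by 27133 regions. A value over 101 bp rests on few reads, and the sources used here do not say how it came to be listed at this width. From the centre of the promoter region, the centres lay at 2.02 kb for CNS1, 4.48 kb for CNS2, 6.80 kb for CNS3, 7.75 kb for the region after it and 12.1 kb for the last region. Together the members covered 33.8% of the window.

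CNS3, the enhancer of the first activation of Foxp3, had the largest fold change of the members on the log2(RPKM + 1) scale, which understates changes of low regions. By the ratio of mean RPKM, KO was at 2.51 times WT here and at 0.369 times WT at CNS1. CNS3 was at 4.45 RPKM (13 reads, 95% interval 2.37 to 7.60) in Flicr WT replicate 1 and 5.55 RPKM (18 reads, 3.29 to 8.78) in Flicr WT replicate 2. In KO it was at 10.8 RPKM (45 reads, 7.85 to 14.4) in replicate 1 and 14.3 RPKM (28 reads, 9.53 to 20.7) in replicate 2. The KO values did not overlap the WT values, while the counting intervals of Flicr WT replicate 2 and Flicr KO replicate 1 overlapped. The KO to WT ratio was 1.94 for the closest pair of libraries and 3.23 for the farthest, whereas replicates differed 1.33-fold in KO and 1.25-fold in WT. Set against the median of each library, CNS3 stood at 2.26 and 2.15 times the median in WT and at 4.02 and 5.38 times in KO, and the pair ratios then ran from 1.78 to 2.51. It exceeded 80.3% and 79.4% of all regions in the WT libraries, compared with 90.5% and 94.5% for KO. In a bulk library, more cells with an open element and a more open element per cell cannot be told apart.

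Over the whole table this difference did not pass the test. On the log2(RPKM + 1) scale it was 1.17 (SE 0.27, 95% CI 0.62 to 1.72), or 0.96 above the median of all regions tested, with an unadjusted limma p of 8.6e-05 and a Benjamini-Hochberg adjusted p of 0.134 over 80254 regions. With each library centred on its median, which left the median of all regions at 0.04, it was 1.0 (SE 0.20, adjusted limma p 0.558), and 4.97% of all regions were higher at an unadjusted p under 0.05. By size, 1.01% of the regions tested had a larger log2 fold change, and by p it ranked at place 51. Limma called 0 of the 6 members at an adjusted p under 0.05, where 0.0187% of all regions were called higher in KO and 0% lower. At an unadjusted limma p under 0.05, CNS3 alone of the members was higher, as were 8.22% of all regions, and 0 members were lower, where 0.842% of all regions were. Such an arrangement, with KO wholly above WT, was found in 33.2% of all regions, and in 20.9% relative to the library median.

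The call on CNS3 also turned on the test and on the WT libraries. Limma voom on the recovered reads, which weighs regions by their read numbers, gave a log2 fold change of 1.23 (SE 0.60, unadjusted p 0.0421, adjusted p 0.526) scaled to all library reads, where 8.60% of all regions were higher at that unadjusted level. Scaled to the reads in regions it gave 0.89 (SE 0.56, unadjusted p 0.115). With that scaling CNS1 (−1.49, SE 1.03) and the region after CNS3 (−1.28, SE 0.58) had fold changes larger in size than CNS3. Scaled to all library reads, CNS1 was at −1.14 (SE 1.08). The limma fit on RPKM (SE 0.27) does not weigh read numbers. Its interval and p can therefore be too narrow for the 13 to 45 reads of CNS3. It gave an adjusted limma p of 0.671 without its trend and robust options. Without Flicr WT replicate 1 the adjusted limma p was 0.0360, in a fit that called 158 of the 80254 regions higher, and without Flicr WT replicate 2 it was 0.000108, in a fit that called 6440 higher. Without Flicr KO replicate 1 it was 0.741 and without Flicr KO replicate 2 it was 0.974. Each of these fits holds 1 library of a genotype, which is assumed to vary like the pair of the other.

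**Figure D2:**
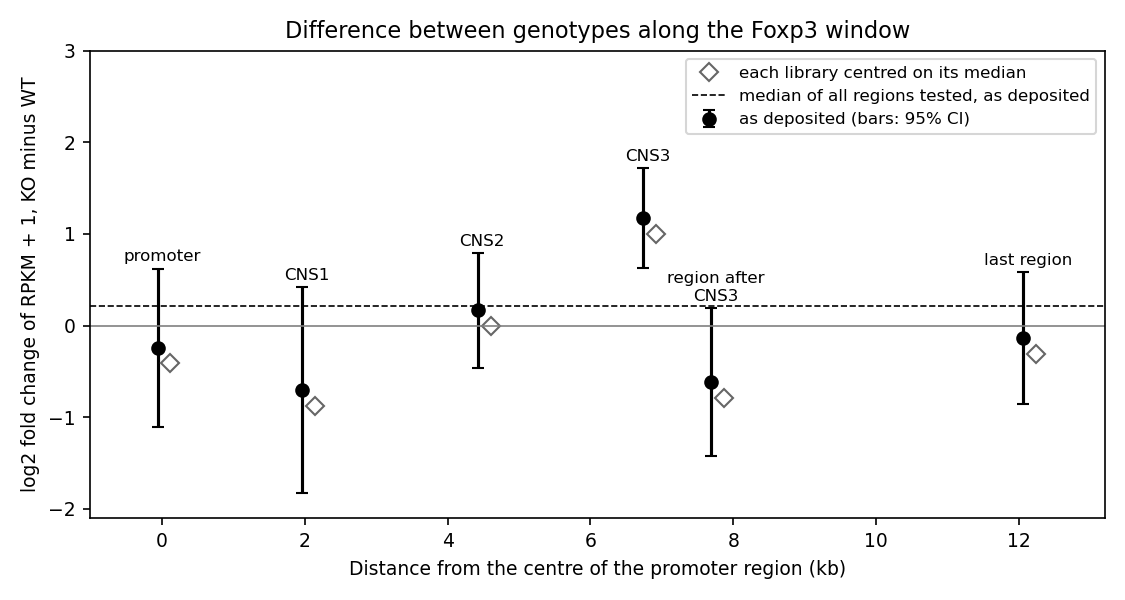
Log2 fold change of RPKM + 1 (KO minus WT) of each region against the distance of its centre from the centre of the promoter region in kb, as deposited (filled circles, 95% CI) and with libraries centred on their medians (open diamonds). The interval of CNS3, 0.62 to 1.72, lies above 0 and above the dashed median of all regions at 0.21, and the other 5 intervals span 0. These intervals do not weigh read numbers, and at CNS3 the SE was 0.27 here and 0.60 by limma voom scaled to all library reads.

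CNS2, the element that maintains Foxp3 in dividing cells, held the most reads of the window and did not separate the genotypes. It was at 5.54 RPKM (212 reads, 95% interval 4.82 to 6.34) and 3.66 RPKM (155 reads, 3.10 to 4.28) in the WT libraries. In KO it was at 6.56 RPKM (359 reads, 5.90 to 7.28) and 4.07 RPKM (104 reads, 3.33 to 4.94). The 4 values interleave. In each genotype the counting intervals of the replicates do not overlap. Those intervals are too narrow, so whether the spread between replicates exceeds counting error is not settled. The log2 fold change was 0.17 (SE 0.31, 95% CI −0.46 to 0.79, adjusted limma p 0.895) as deposited and −0.0045 after median centring. The interval leaves room for changes up to that size in either direction.

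CNS1, the TGF-β-responsive element, had the lowest mean of the members in both genotypes, though in Flicr WT replicate 2 it was above the promoter. It was at 1.12 RPKM (11 reads) and 2.03 RPKM (22 reads) in the WT libraries and at 0.857 RPKM (12 reads) and 0.306 RPKM (2 reads, 95% interval 0.0371 to 1.11) in the KO libraries. Both KO values lay below both WT values, but the replicates differed 2.80-fold in KO and 1.80-fold in WT. The log2 fold change was −0.70 (SE 0.56, 95% CI −1.82 to 0.42, adjusted limma p 0.714), and −0.87 after median centring (SE 0.49). CNS1 passed the filter on mean RPKM (1.01) only through its WT mean of 1.57, as its KO mean was 0.581. Such a filter keeps low regions that are low in KO alone, which limits what its lower level in KO can show.

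The promoter region, which spans the entry to the gene, was at 1.96 RPKM (104 reads) and 1.53 RPKM (90 reads) in WT and at 1.33 RPKM (101 reads) and 1.30 RPKM (46 reads) in KO. The KO libraries lay 1.02-fold apart and below both WT libraries, the nearer of which was Flicr WT replicate 2. The log2 fold change was −0.24 (SE 0.43, 95% CI −1.10 to 0.62, adjusted limma p 0.888) as deposited and −0.41 (SE 0.38) after centring. Relative to the library median, the promoter stood at 0.998 and 0.593 times in WT and at 0.497 and 0.488 times in KO. Flicr WT replicate 1 thus stood at about the median region, and the other 3 libraries below it.

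The region after CNS3, whose centre lies under 1 kb further into the gene, differed in the other direction from CNS3. It was at 1.86 RPKM (20 reads) and 3.78 RPKM (45 reads) in WT and at 1.43 RPKM (22 reads) and 1.40 RPKM (10 reads) in KO. Both KO libraries were below both WT libraries, which lay 2.03-fold apart. The log2 fold change was −0.62 (SE 0.40, 95% CI −1.42 to 0.19, adjusted limma p 0.652), −0.99 without Flicr WT replicate 1 and −0.25 without Flicr WT replicate 2. It was −0.79 (SE 0.35, unadjusted limma p 0.0419, adjusted p 0.670) after centring, where 2.43% of all regions were lower at that unadjusted level. Limma voom scaled to the reads in regions gave −1.28 (SE 0.58, unadjusted p 0.0285) here and −0.68 (SE 0.31, unadjusted p 0.0295) at the promoter, where 4.47% of all regions were lower at that level, and called neither after adjustment (0.660 and 0.665). The last region was at 2.39 RPKM (68 reads) and 3.62 RPKM (114 reads) in WT and at 2.66 RPKM (108 reads) and 2.53 RPKM (48 reads) in KO. Its KO values lay between the WT values, with a log2 fold change of −0.14 (SE 0.36, 95% CI −0.86 to 0.58, adjusted limma p 0.928).

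Across the 6 members, KO had the higher mean at 2 and the lower mean at 4, and their median log2 fold change was −0.19, against 0.21 over all regions tested. After median centring the members' median was −0.36 and that of all regions 0.04. Both KO libraries lay below both WT libraries at the promoter, CNS1 and the region after CNS3, and relative to the library median at the last region too. Over all regions this arrangement was found in 7.81% as deposited and in 15.2% relative to the median. None of these lower values passed the test.

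**Figure D3:**
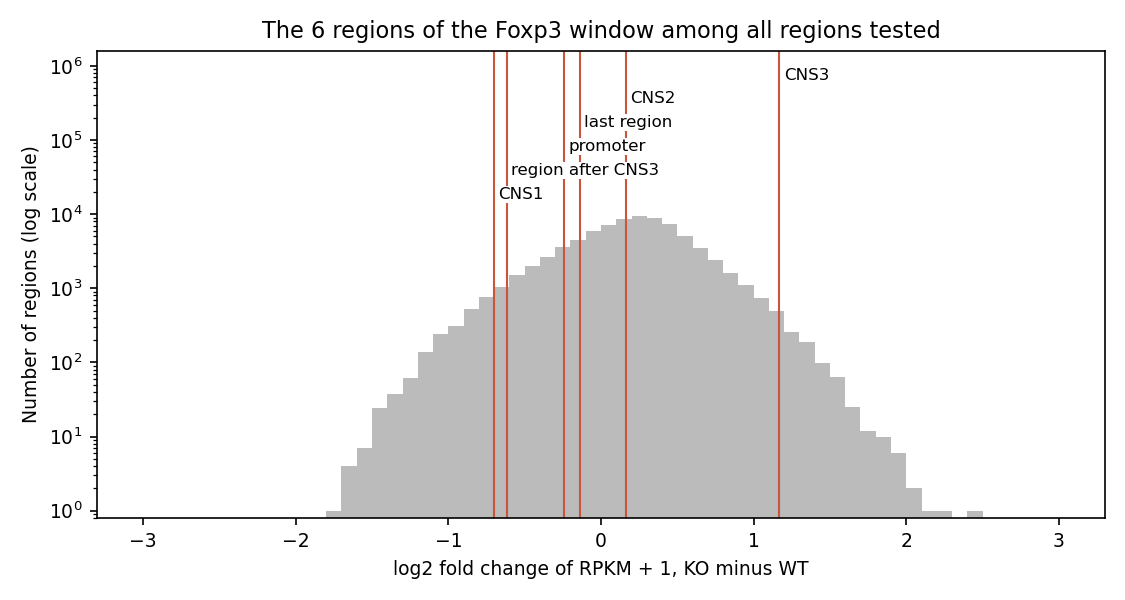
Histogram of the log2 fold change of RPKM + 1 (KO minus WT) of the 80254 regions tested, with the number of regions on a log axis and a red line for each member. CNS3, at 1.17, lies in the upper tail, where 1.01% of the regions were higher, and CNS1 and the region after CNS3, at −0.70 and −0.62, lie in the lower tail. CNS1 passed the filter on mean RPKM only through its WT libraries.

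Ratios within a library do not depend on how libraries are scaled to each other. The members were therefore also set against the promoter region of the same library. The promoter region itself was lower in both KO libraries (1.33 and 1.30 against 1.96 and 1.53 RPKM in WT), which raises each ratio to it in KO. It is 1814 bp wide and CNS3 101 bp, so their ratio compares unlike widths. CNS3 was 2.27 and 3.63 times as accessible per base as the promoter region in the WT libraries and 8.08 and 11.0 times in the KO libraries. All KO ratios exceeded all WT ratios, with a mean difference of 1.72 on the log2 scale (3.24 ± 0.318 in KO, 1.52 ± 0.479 in WT, SD, n = 2 each). An exact permutation test (two-sided) gave p = 0.333, the smallest that 2 libraries against 2 allow. CNS3 was also 0.802 and 1.52 times as accessible as CNS2 in WT and 1.64 and 3.52 times in KO, with no overlap but a narrow gap between Flicr WT replicate 2 and Flicr KO replicate 1 (exact permutation p = 0.333). CNS2 was 2.82 and 2.39 times the promoter in WT and 4.93 and 3.13 times in KO, a log2 difference of 0.60 without overlap. That difference was 0.41 with log2 of RPKM + 1 and 0.24 against the whole window (exact permutation p = 0.667 in both). CNS1, the region after CNS3 and the last region had overlapping ratios, with log2 differences of −1.16, −0.51 and 0.22.

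The reads of the window were also divided among the members within each library. CNS3 took 3.04% (95% interval 1.63% to 5.14%) and 4.05% (2.42% to 6.33%) of the window reads in the WT libraries. In KO it took 6.96% (5.12% to 9.20%) and 11.8% (7.96% to 16.6%). The mean was 9.36% ± 3.40 in KO and 3.55% ± 0.719 in WT (SD, n = 2 each), without overlap. The promoter, CNS1 and the region after CNS3 took smaller shares in both KO libraries than in both WT libraries. The promoter had 15.6% and 19.3% in KO against 24.3% and 20.3% in WT, CNS1 had 1.85% and 0.840% against 2.57% and 4.95%, and the region after CNS3 had 3.40% and 4.20% against 4.67% and 10.1%. CNS2 took the largest share in every library, 49.5% and 34.9% in WT and 55.5% and 43.7% in KO, with overlap. Shares sum to the whole, so a larger share of a member lowers those of the others. Over the 11 ratios to the promoter and shares tested together, every exact permutation p was 0.333 or above and every Benjamini-Hochberg adjusted p 0.611 or above.

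**Figure D4:**
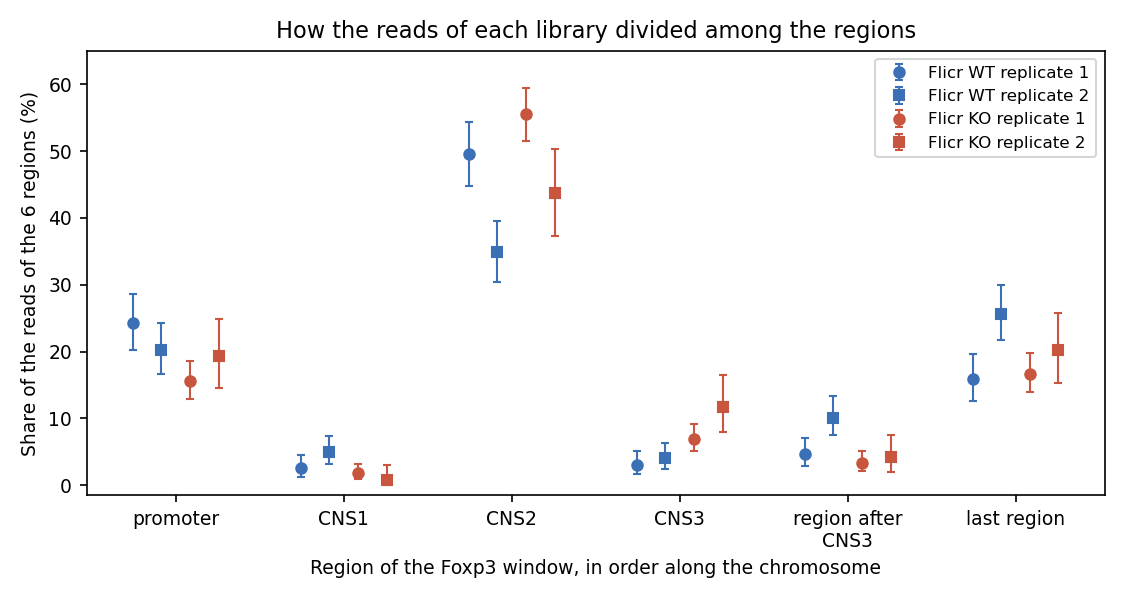
Percent of the reads of the 6 regions that fell in each region, by library, with circles for replicate 1, squares for replicate 2, blue for Flicr WT, red for Flicr KO and bars for exact 95% binomial intervals. CNS3 is at 3.04% and 4.05% in the WT libraries and at 6.96% and 11.8% in the KO libraries, and CNS2 holds the largest share in all 4.

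The window as a whole did not differ beyond the spread of the libraries. All members pooled were at 2.99 and 2.80 RPKM in WT and at 3.16 and 2.49 RPKM in KO (exact permutation p = 1). Relative to the library median the pooled level was 1.52 and 1.08 times in WT and 1.18 and 0.935 times in KO (exact permutation p = 0.667). Leaving CNS3 out of the pool gave 1.51 and 1.06 times in WT and 1.12 and 0.842 times in KO. Relative to the median, Flicr KO replicate 1 lay between the WT libraries, while as deposited it lay above both.

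Outside the window, the nearest listed region before it (chrX:7154313-7154726) was at 1.33 and 2.09 RPKM in WT and at 0.695 and 0.124 RPKM in KO, the last of these on 1 read. The nearest after it (chrX:7170025-7175112, 5088 bp wide) was at 3.25 and 2.71 RPKM in WT and at 3.54 and 4.09 RPKM in KO. Among 2082 other regions tested on chromosome X, the 3 whose pattern over the 4 libraries lay closest to that of CNS3, by Euclidean distance of centred log2 values, were at chrX:45776218-45776468, chrX:103276177-103276684 and chrX:141833851-141834101. Their log2 fold changes were 1.26, 0.97 and 1.17, with adjusted limma p from 0.315 to 0.514, and the nearest lay 38.6 Mb from CNS3. Fold changes near that of CNS3 follow from this choice. Their WT levels were 0.547 to 1.03 RPKM, against 4.45 and 5.55 at CNS3.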

How the data were processed

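ATAC-seq reads of 2 Flicr WT and 2 Flicr KO libraries were deposited by the authors as RPKM over 1 shared list of regions, per the file headers, with no further scaling between libraries. Per the submitters' processing notes, mm9 was the build and the tools were DiffBind, HOMER 4.6, SAMtools, Picard 1.130 and Bowtie2, without their roles. The calling of regions, the treatment of duplicates and any shift of reads for the transposase are not given in the sources used here. In every library, 100% of the RPKM values times the region's width less 1 base were whole multiples of 1 step (tolerance 0.001 reads), which gave the reads. The lowest value is 1 read, so a region listed at 1 may have held 0.

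Genotypes were compared with limma 3.58.1 (R 4.3.3, trend and robust options) on log2(RPKM + 1), a scale that understates changes of low regions. A filter at the 5th percentile of mean RPKM (1.01) removed 4222 regions, and all 6 members passed. CNS1 passed only through its WT libraries, as its KO mean of 0.581 RPKM lay under the filter. P-values were adjusted over the 80254 regions tested, with a threshold of 0.05. Ratios and shares were compared by exact permutation in scipy 1.17.1, with numpy 2.4.6, pandas 2.3.3 and matplotlib 3.10.9 under Python 3.11.15. The fits were tried on simulated data that were scaled to the reads in regions and held no overall shift between genotypes. The main fit, on RPKM as deposited, was not tried in that way. Every member was named, with the nearest region on each side and the 3 regions of chromosome X closest in pattern to CNS3. The members, lists and tests were chosen with earlier results of these data known. Lists of marker genes and of Foxp3 regulators were not used, because the files name no genes. Alternatives covered scaling, pseudocount, filter, test, each library left out and the replicate number as a block. Coordinates count from 1.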

Additional observations from a re-analysis of the deposited data

How the results depend on the processing

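Of 89 refits of the members' fold changes, 81 kept both direction and side of the threshold, 6 changed sign and 2 gained a call. The sign changes were at CNS2, which was 0.17 as deposited and −0.0045 with median centring, −0.10 with quantile normalization and −0.11 scaled to reads in regions, and at CNS2 and the last region when a library was left out (−0.12 to 0.45 and −0.36 to 0.083). The promoter, CNS1 and the region after CNS3 stayed below 0 with a library left out (−0.35 to −0.13, −0.96 to −0.45 and −0.99 to −0.25). This sign was fixed in advance, because both KO libraries lay below both WT libraries there. CNS1 was under the filter at the 25th percentile and has no value there. CNS3 stayed above 0 in all 15 refits. With a library left out, CNS3 had to stay above 0, because its KO values all exceeded its WT values. Its fold change was 0.81 to 1.24 with all libraries (0.81 with a pseudocount of 5, limma adjusted p 0.0901 to 0.861), and 0.98 to 1.36 with a library left out, where both calls were gained without a WT library. The members called, 0 with every setting that kept all libraries, were 0 to 1 with a library left out. Over all regions, 15 higher and 0 lower became 0 higher with median centring, quantile normalization, scaling to reads in regions, and without trend and robust options, 25 higher without a filter, 42 higher with a replicate block, and 10 lower with voom scaled to reads in regions. With a library left out, the counts ranged from 0 to 6440 higher and from 0 to 18 lower. At 10 voom calls higher scaled to all library reads and 10 higher with the filter at the 25th percentile, the count stayed within 1.5 times. The cause was not tested.

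The replicate numbers are shared by the genotypes, but same-numbered libraries did not deviate together (r = 0.0031 across 80254 regions, which are not independent). Counting error can hide a shared deviation, so this does not settle whether same-numbered libraries were paired. The replicate number as a block cannot change a fold change here, as both genotypes have the same replicate numbers. With this block, CNS3 had a limma adjusted p of 0.0901 and no member was called. For quantities within a library, the share of CNS2 was 7.37 percentage points higher in KO by reads and −2.65 points by summed RPKM, which does not weigh by width. The log2 ratio of the last region was 0.22 to the promoter and −0.14 to the whole window, and −0.26 to 0.69 with a library left out. With a library left out, the ratio of the region after CNS3 ranged from −1.20 to 0.18 and the share of the last region from −7.25 to 2.54 points. CNS3 stayed higher in KO, by 1.37 to 2.06 in log2 ratio, and in share by 5.81 points (reads) and 26.1 (summed RPKM). With a library left out (share 3.41 to 8.22) it had to, as KO and WT did not overlap. Depth limits CNS1, the region after CNS3 and CNS3 most, with 2 to 22, 10 to 45 and 13 to 45 reads a library.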
